A study of Mus musculus with 32 samples.

Results

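The E2F transcription factor genes E2f1 to E2f8 were followed in the epidermis of mice with and without a single UV exposure. The mice were wild type or labelled knockout for Ppard, the gene of the nuclear receptor PPARβ/δ. The 8 genes were matched by symbol among the 55401 genes of the count files, and no threshold on a value was used. The family was selected on earlier results from the wild-type mice of this series, so the wild-type UV and sex values below describe the choice and carry no test. Differences between genotypes take in those wild-type values and are given as descriptions too, whereas the UV response of the knockout mice took no part in the choice. The RNA libraries came from the epidermis of 32 SKH-1/SV129/BL6/J mice aged 10 to 14 weeks, 1 library per mouse, in 8 groups of 4. The groups combined the genotype label (WT, or KO for the PPARD-/- littermates), sex, and either exposure of the back to 120 mJ/cm2 of UV or sham handling without UV (Control). Exposed mice were taken 24 h after the exposure, and control mice carry the time label T0. The KO label applies to the whole animal, the hairless mixed background was shared by all groups, and the altered Ppard allele was not described in the sources used here.

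E2F proteins bind promoters of genes for DNA replication and mitosis, mostly as partners of a DP protein, and their activity is held in check by pocket proteins of the RB family. E2F1, E2F2 and E2F3 are known as activators that drive entry into S phase, E2F4, E2F5 and E2F6 as repressors that occupy the same promoters in resting cells, and E2F7 and E2F8 as atypical repressors that bind DNA without a DP partner. In epidermis they act on the switch between dividing basal keratinocytes and the differentiating layers above, and E2F1 and the atypical members are also tied to the DNA damage response.

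The promoters of E2f7, E2f8 and E2f3 are shown because E2f7 and E2f8 rose most after UV and because these 3 have the same start in RefSeq and GENCODE and hold, before it, a match to at least 1 of the 2 motifs searched, the E2F motif (TTTCCCGC, TTTCGCGC, TTTGCCGC or TTTGGCGC) and the CHR motif of cell cycle promoters (TTTGAA or TTCGAA), each on either strand. The sequences come from RefSeq on build GRCm38.p6, run 5′ to 3′ on the strand of the gene, end before the transcription start, and carry the motif matches in capitals. The stretch of E2f7 covers bases -250 to -151 counted from the start, and those of E2f8 and E2f3 cover bases -100 to -1.
E2f7, chr10:110745189-110745288, + strand: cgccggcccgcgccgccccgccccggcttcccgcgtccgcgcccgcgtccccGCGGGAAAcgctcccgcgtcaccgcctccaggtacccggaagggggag
E2f8, chr7:48881597-48881696, - strand: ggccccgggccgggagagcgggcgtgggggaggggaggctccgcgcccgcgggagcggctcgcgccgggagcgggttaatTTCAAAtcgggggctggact
E2f3, chr13:29986064-29986163, - strand: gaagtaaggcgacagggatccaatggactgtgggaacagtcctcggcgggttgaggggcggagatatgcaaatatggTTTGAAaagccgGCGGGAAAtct
The E2f7 stretch holds the E2F motif on the reverse strand, the E2f8 stretch holds the CHR motif on the reverse strand, and the E2f3 stretch holds both, with no overlap between them. RefSeq windows of 300 bases, 250 of them upstream, were present for 6 of the 8 members (8 windows in all). The E2F motif was found in 3 of these 8 windows, beside 2.26% of all 32851 windows, and the CHR motif also in 3 of 8, beside 19.2% of all windows. The third E2F match lay in E2f2, past the start, and the third CHR match upstream of a second E2f2 start. A match describes letters in the window and is not a bound site.

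Library totals on genes ran from 22919428 to 40653581 reads (median 27600228), and each member had from 52 reads (E2f7 in 1 control mouse) to 3178 reads (E2f2) in a mouse. Levels are given in cpm, the reads of a gene scaled to a common, TMM-adjusted library size. Keratinocyte markers (7 genes) summed to 23855 cpm or more in every library, and to 61475 to 99853 cpm in KO controls. Their median sum was lower after UV, at 38891 against 76982 cpm in KO mice and 35608 against 71965 cpm in WT mice. Krt10, Krt1 and Krt14 weigh most in this sum, with means of 21045, 17247 and 11448 cpm over all mice. Of the 7 markers, 4 were called higher and 2 lower after UV in KO mice, and 2 higher and 3 lower in WT mice. The sum is therefore no measure of keratinocyte number. Fibroblast markers (6 genes) summed to 1982 cpm in 1 UV-exposed KO female (54F) and to at most 92.2 cpm in the other mice. Skeletal muscle markers summed to over 1000 cpm in 9 mice spread over 6 groups and to at most 523 cpm in the others. Ppard itself was still counted in KO mice. Without UV it had 70.3 to 88.9 cpm in KO mice and 87.3 to 105 cpm in WT mice, and after UV 175 to 239 cpm in KO mice and 252 to 326 cpm in WT mice. The genotype ranges overlapped without UV and did not overlap after UV, and whether the counted exons lie outside the altered part is unknown.

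**Figure D1:**
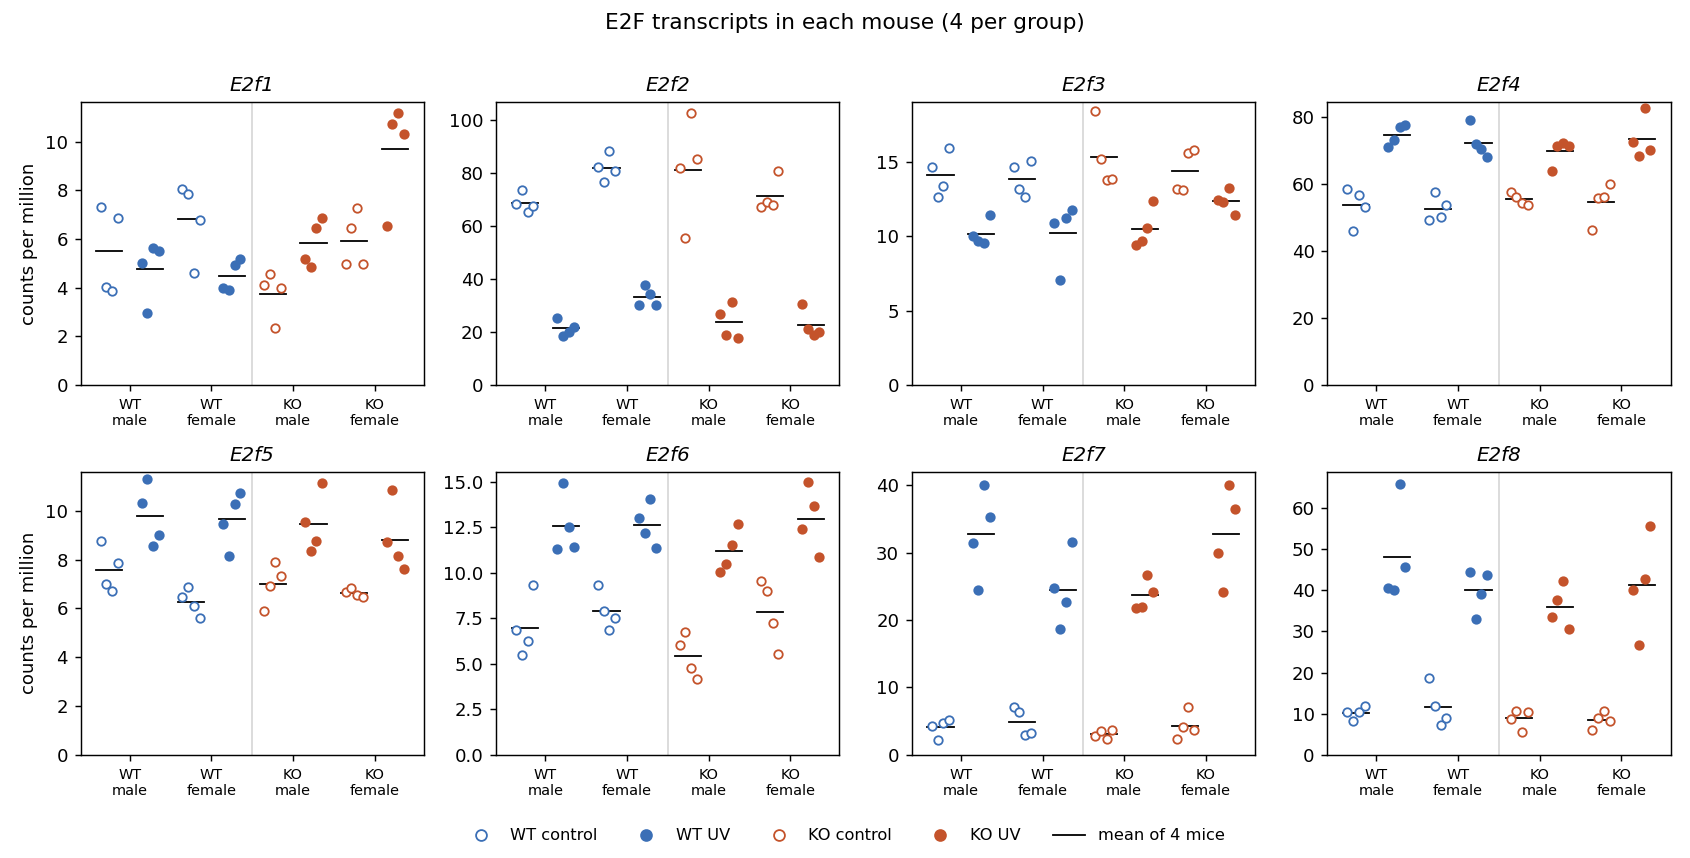
Level in cpm of E2f1 to E2f8 in each of the 32 mice, with open points for control mice, filled points for UV-exposed mice, blue for WT, orange for KO and a line at the mean of 4. E2f7 and E2f8 separate by UV in both genotypes, E2f2 falls in both, and E2f1 reaches its highest values, 10.3 to 11.2 cpm, in 3 UV-exposed KO females.

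UV moved every member of the family in KO mice. In edgeR's quasi-likelihood fit, with p adjusted by Benjamini-Hochberg over all genes, 8 of 8 members passed the threshold of 0.05 in KO mice (8 UV against 8 control), where 70.8% of all 15546 genes tested did so. In WT mice 8 of 8 passed beside 71% of all genes, as a description. With shares of this size among all genes, the count of members stands near the background, and the values that carry information are the directions and sizes. Those are given by role below, with the 2 genotypes side by side. In KO mice, UV and control values did not overlap over both sexes for 5 of 8 members, beside 35.1% of all genes. In WT mice they did not overlap for 6 of 8, beside 43.4% of all genes. Cell type markers moved with UV as well. In KO mice 7 of 8 T cell and 6 of 6 Langerhans cell markers fell, 4 of 5 myeloid, 4 of 6 sebocyte and 2 of 3 endothelial markers rose, 4 of 7 keratinocyte markers rose and 2 fell, and 0 of 6 fibroblast and 0 of 4 muscle markers were called. Their part in the E2F values was not tested.

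The atypical repressors rose most. E2f7 (chromosome 10, 110745439 to 110787384, + strand), which restrains S phase genes and E2f1 itself, stood at 2.29 to 7.07 cpm in KO controls (median 3.59) and at 21.8 to 40.1 cpm in UV-exposed KO mice (median 25.5). WT mice went from 2.25 to 7.11 cpm (median 4.54) to 18.6 to 40.0 cpm (median 28.1). Every exposed mouse thus lay above every control mouse in both genotypes. The rise of E2f7 was 7.60-fold in KO mice (log2 2.93, SE 0.22, edgeR adjusted p = 2.51e-12) beside 6.28-fold in WT mice (log2 2.65, SE 0.21).

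E2f8 (chromosome 7, 48866429 to 48881596, - strand), the close relative that pairs with E2F7, had 5.63 to 10.7 cpm in KO controls (median 8.87) and 26.7 to 55.7 cpm after UV (median 38.8). In WT mice it had 7.22 to 18.7 cpm (median 10.4) and 33.0 to 65.7 cpm (median 42.0). Again no exposed mouse reached down to the control range. E2f8 rose 4.45-fold in KO mice (log2 2.15, SE 0.18, edgeR adjusted p = 3.15e-11) beside 4.02-fold in WT mice (log2 2.01, SE 0.18). An opposite-strand transcript, Gm2788, shares 11.2% of the E2f8 exon bases, and it drew 406 reads in all mice together against 23673 for E2f8. The strand setting used for counting was not given in the sources used here.

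The canonical repressors rose by smaller amounts. E2f6 (chromosome 12, 16810963 to 16839742, + strand), which represses through a polycomb complex and not through pocket proteins, went in KO mice from 4.15 to 9.57 cpm (median 6.40) to 10.1 to 15.0 cpm (median 12). This was 1.85-fold (log2 0.89, SE 0.12, edgeR adjusted p = 3.52e-07), beside 1.70-fold in WT mice (log2 0.76, SE 0.12), and the exposed and control ranges were apart in both genotypes. E2f4 (chromosome 8, 105297663 to 105305370, + strand), the main partner of the pocket proteins p107 and p130, went from 46.3 to 59.9 cpm (median 55.9) to 63.9 to 82.6 cpm (median 71.3) in KO mice. The ranges of E2f4 were also apart in both genotypes, with a rise of 1.30-fold in KO mice (log2 0.38, SE 0.06, edgeR adjusted p = 8.25e-07) and 1.38-fold in WT mice (log2 0.47, SE 0.06).

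E2f5 (chromosome 3, 14578641 to 14606309, + strand), the other p130 partner, overlapped between exposed and control mice in both genotypes. It had 5.88 to 7.91 cpm in KO controls (median 6.74) and 7.60 to 11.1 cpm in exposed KO mice (median 8.73), a rise of 1.34-fold (log2 0.42, SE 0.09, edgeR adjusted p = 0.000186). The WT rise was 1.41-fold (log2 0.50, SE 0.09). The overlap of its exons with the opposite-strand gene 1810022K09Rik is 26 bases.

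The activators went in both directions in KO mice, while in WT mice all 3 were lower after UV, as a description. E2f2 (chromosome 4, 136172394 to 136196057, + strand) fell most in the family. It had 55.4 to 102 cpm in KO controls (median 74.9) and 17.7 to 31.5 cpm in exposed KO mice (median 20.7), and 65.3 to 88.1 cpm (median 75.1) against 18.5 to 37.7 cpm (median 27.8) in WT mice. No exposed mouse of either genotype had as much E2f2 as any control. In KO mice E2f2 fell by 1.71 on the log2 scale (SE 0.12, edgeR adjusted p = 9.7e-13), beside a log2 fold change of -1.49 (SE 0.12) in WT mice.

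E2f3 (chromosome 13, 29906575 to 29986063, - strand) had 13.1 to 18.5 cpm in KO controls (median 14.6) and 9.40 to 13.3 cpm in exposed KO mice (median 11.9). These ranges touched in KO mice but not in WT mice, where controls had 12.6 to 15.9 cpm and exposed mice 7.08 to 11.8 cpm. E2f3 fell by 0.38 on the log2 scale in KO mice (SE 0.09, edgeR adjusted p = 0.000587) beside a change of -0.46 (SE 0.09) in WT mice. The reads do not separate the E2F3a and E2F3b isoforms.

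E2f1 (chromosome 2, 154559407 to 154569892, - strand), the activator that also drives apoptosis genes, was the only member with opposite signs in the 2 genotypes. KO controls had 4.12, 4.57, 2.33 and 3.99 cpm in males and 4.96, 6.45, 7.29 and 4.97 cpm in females. After UV, KO males had 5.18, 4.83, 6.45 and 6.87 cpm and KO females 6.53, 10.7, 11.2 and 10.3 cpm. Exposed KO males thus all lay above control KO males, while the lowest exposed KO female lay inside the range of the control KO females. Exposed and control ranges were apart for 53.5% of all genes in KO males and 52.5% in KO females. Over both sexes E2f1 rose 1.59-fold in KO mice (log2 0.67, SE 0.18, edgeR adjusted p = 0.00126).

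In WT mice the order of E2f1 was the other way round. WT controls had 7.33, 4.01, 3.87 and 6.88 cpm in males and 8.06, 7.85, 4.59 and 6.79 cpm in females, and exposed WT mice 5.0, 2.98, 5.63 and 5.52 cpm in males and 4.0, 3.89, 4.92 and 5.18 cpm in females. The WT groups overlapped, with means of 6.17 ± 1.74 cpm without UV and 4.64 ± 0.924 cpm with UV (SD, n = 8 each). The log2 fold change was -0.40 (SE 0.18), made up of -0.60 (SE 0.25) in WT females and -0.21 (SE 0.25) in WT males. With 53 to 370 reads per mouse, E2f1 was among the least counted members.

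**Figure D2:**
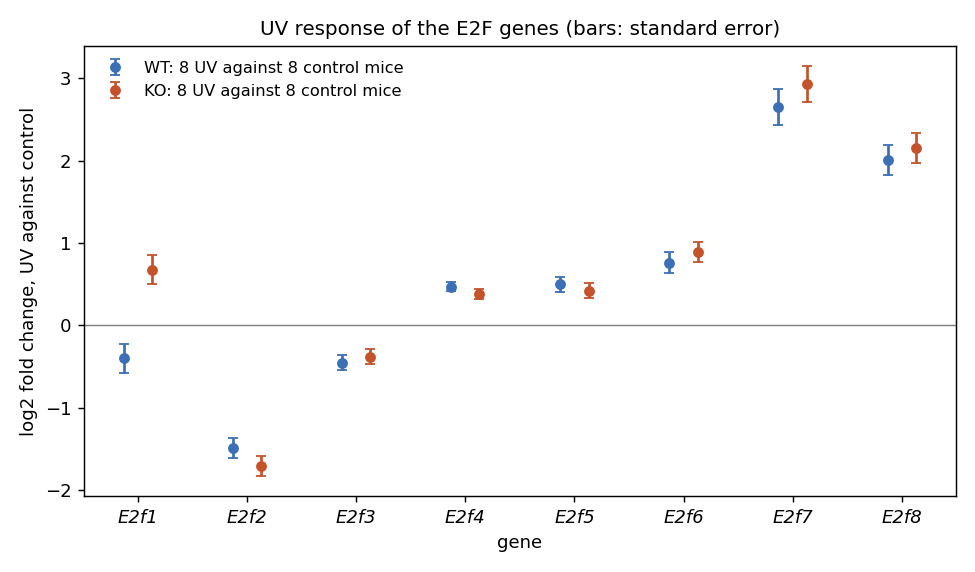
Log2 fold change of each member, UV against control, in WT (blue) and KO (orange) mice, 8 against 8 mice with both sexes weighted equally and bars for the standard error. The 2 genotypes differ by at most 0.27 for 7 genes, and E2f1 sits at -0.40 in WT and 0.67 in KO mice.

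Between the UV responses of the 2 genotypes, 1 of 8 members, E2f1, differed past the threshold, beside 0.765% of all genes. The WT part of this difference is the UV response on which the family was chosen, so the value and its p describe E2f1 and are no independent test. The UV response of E2f1 was 1.08 higher on the log2 scale in KO than in WT mice (SE 0.25, 95% interval 0.59 to 1.56, edgeR adjusted p = 0.0351). The call was not firm. Leaving out 1 mouse at a time kept the difference between 0.95 and 1.15 but lost the call for 18 of the 32 mice, with adjusted p up to 0.0725. Those were 44F, 69F, 54F, 66F, 34M, 52M, 58M, 61M and 72M of the KO mice and 61F, 63F, 73F, 51F, 57F, 43M, 69M, 32M and 38M of the WT mice. Without the KO female with the high fibroblast sum (54F) it was 1.03 (adjusted p = 0.0526), and without the 9 mice with high muscle markers 1.14 (adjusted p = 0.0770).

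Within the sexes, the difference of the E2f1 responses was 0.84 (SE 0.35, edgeR adjusted p = 0.596) in males and 1.31 (SE 0.35, adjusted p = 0.0752) in females, so it was above 0 in both and passed the threshold in neither. For the other 7 members the difference ran from -0.22 (E2f2, 95% interval -0.54 to 0.11) to 0.27 (E2f7, 95% interval -0.29 to 0.84), over both sexes, with edgeR adjusted p of 0.493 or more. These intervals leave room for a difference of that size and do not show equal responses. The narrowest was that of E2f4, from -0.24 to 0.07. In females E2f7 was at 0.60 (SE 0.41, edgeR adjusted p = 0.503), E2f8 at 0.51 (SE 0.35, adjusted p = 0.508) and E2f2 at -0.34 (SE 0.24, adjusted p = 0.520). In males E2f7 was at -0.05 (SE 0.41) and E2f8 at -0.22 (SE 0.35), so both had opposite signs in the 2 sexes, and none of these values passed the threshold.

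**Figure D3:**
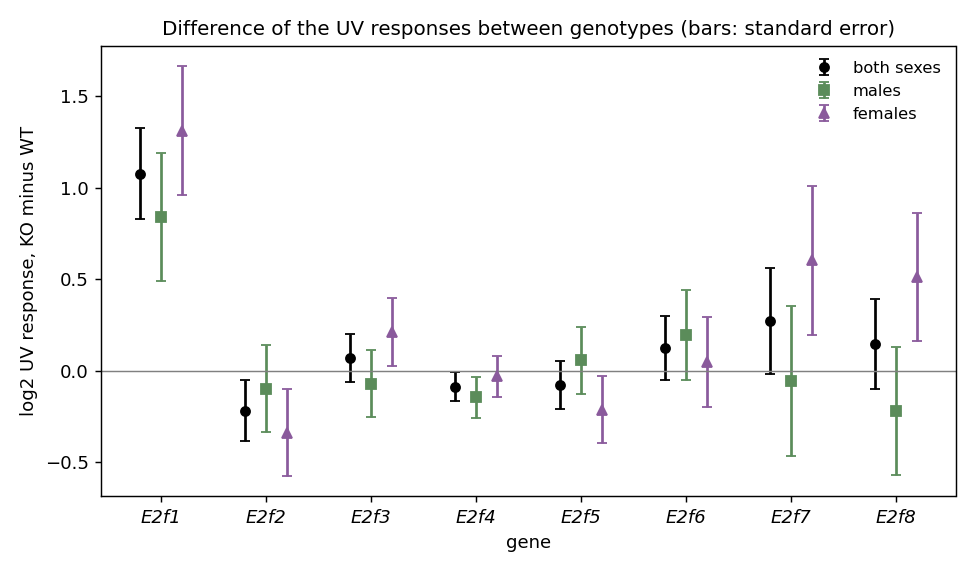
Difference of the log2 UV responses, KO minus WT, for each member over both sexes (black circles), in males (green squares) and in females (purple triangles), with bars for the standard error. E2f1 is at 1.08 over both sexes, and the other 7 genes lie between -0.22 and 0.27 over both sexes and between -0.34 and 0.60 in females.

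The split of the E2f1 difference between the 2 treatment states was as follows. Among control mice no member passed the test between genotypes (0 of 8, beside 0.206% of all genes by edgeR), and 1324 genes had an unadjusted p under 0.05. E2f1 was the 1 member among these, with a log2 difference of -0.38 (SE 0.18, 95% interval -0.72 to -0.04, edgeR adjusted p = 0.558). With DESeq2 and limma-trend the count among control mice was also 0 of 8. Among exposed mice 1 of 8 passed, beside 3.31% of all genes. E2f1 was 1.62-fold higher in exposed KO than exposed WT mice (log2 0.70, SE 0.18, edgeR adjusted p = 0.0306), with means of 7.76 ± 2.57 and 4.64 ± 0.924 cpm (SD, n = 8 each). The exposed WT mice are again among those the family was chosen on, so this p is no independent test either. In that comparison the call was lost when any of 6 mice was left out (54F, 58M and 61M of the KO mice and 51F, 57F and 38M of the WT mice, adjusted p from 0.0523 to 0.0765), and without the 9 mice with high muscle markers (adjusted p = 0.180).

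The ranges of the 2 genotypes overlapped for all 8 members in both states, beside 0.103% of all genes without overlap among controls and 0.187% among exposed mice. Other cell types also moved in that comparison. All 6 fibroblast markers were called higher in exposed KO than in exposed WT mice (median log2 4.43), with sums of 6.0 to 1982 cpm (median 11.2) in exposed KO mice and 1.73 to 8.44 cpm (median 4.33) in exposed WT mice. The KO female 54F held the 1982 cpm and the other 7 exposed KO mice 6.0 to 30.0 cpm, and without 54F 0 of 6 fibroblast markers were called (median log2 1.39). Myeloid markers summed to 30.3 to 541 cpm (median 98.2) and 27.0 to 103 cpm (median 39.5), with 0 of the 5 tested called and Ly6g near 0, and none of the markers of T cells (8 genes), Langerhans cells (6), sebocytes (6), endothelium (3 of 4 tested), muscle (4) or keratinocytes (7) was called. The part of these cells in the E2f1 difference was not tested. In whole epidermis a change in the number of dividing cells and a change in RNA per cell cannot be told apart.

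The sexes were compared within each genotype. In KO males 8 of 8 members passed the UV test (61.7% of all genes) and in KO females 7 of 8 (60.7%), where E2f3 changed by -0.22 (SE 0.13, edgeR adjusted p = 0.143) beside -0.55 (SE 0.13, adjusted p = 0.000738) in KO males. In WT males 7 of 8 passed (60.9%), E2f1 being the exception, and in WT females 8 of 8 (61.3%). These counts do not show a difference between the sexes. The E2f1 call in KO males was lost without 52M, 61M or 72M (adjusted p up to 0.110) and that in KO females without 74F (0.0682). The test of the difference between the sexes found no member in KO mice (0 of 8, beside 0% of all genes) and, as a description, none in WT mice (0 of 8, 0%). Unadjusted p fell under 0.05 for 1482 genes in KO and 419 genes in WT mice, none of them a member, and DESeq2 called 35 and 3 genes and no member. The test of whether the sex difference itself depended on genotype also gave 0 of 8 members (0% of all genes by edgeR, 771 with an unadjusted p under 0.05, and 6 by DESeq2).

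After UV, exposed KO females had more E2f1 than exposed KO males (1 of 8 members called, beside 13.3% of all genes). Without UV the KO sexes lay in the same order, at 4.96 to 7.29 cpm in females and 2.33 to 4.57 cpm in males. The sexes were not tested without UV, and the E2f1 responses to UV differed by 0.08 (SE 0.35) between the KO sexes. The means after UV were 9.68 ± 2.13 and 5.83 ± 0.98 cpm (SD, n = 4 each), a log2 difference of 0.73 (SE 0.25, edgeR adjusted p = 0.0484), and the lowest female (6.53 cpm) lay below the highest male (6.87 cpm). The call was lost for 23 of the 32 mice left out 1 at a time, with adjusted p up to 0.144, and under 6 of 7 other settings. It stayed when 62F, 52F or 44M of the KO mice or 71F, 43M, 54M, 56M, 69M or 38M of the WT mice was left out. The high-fibroblast female 54F is 1 of the 4 females, and without it the difference was 0.68 (adjusted p = 0.144). In the same comparison all 6 fibroblast, 4 of 6 Langerhans cell, 3 of 5 myeloid and 2 of 3 endothelial markers were called higher in females, and 1 Langerhans cell and 2 of 7 keratinocyte markers lower. Without 54F these counts were 0 of 6 fibroblast, 4 of 6 Langerhans cell, 0 of 5 myeloid and 0 of 3 endothelial markers higher, and 1 Langerhans cell and 1 keratinocyte marker lower. The part of these cells in the E2f1 value was not tested. No member had separate ranges between exposed KO females and males, beside 11.7% of all genes.

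In exposed WT mice E2f2 was the 1 member with separate ranges between the sexes (3.06% of all genes), at 30.1, 37.7, 34.5 and 30.2 cpm in females and 25.5, 18.5, 19.9 and 22.1 cpm in males. WT controls lay in the same order, at 76.7 to 88.1 cpm in females and 65.3 to 73.4 cpm in males. The sexes were not tested without UV, and the E2f2 responses to UV differed by 0.37 (SE 0.24) between the WT sexes. In the fit of all 32 mice 0 of 8 members passed between exposed WT females and males (0.0772% of all genes), and 618 genes had an unadjusted p under 0.05, E2f2 alone among the members. The same measure in exposed KO mice did not repeat the separation. E2f2 was at 30.7, 21.2, 19.0 and 20.2 cpm in KO females and 26.8, 19.1, 31.5 and 17.7 cpm in KO males, a log2 difference of -0.06 (SE 0.17, 95% interval -0.39 to 0.27, edgeR adjusted p = 0.844). The WT log2 difference of 0.62 lies above that interval, but whether the sex difference depended on genotype after UV was not tested.

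The order of the members can be read per kilobase of exon, where cpm is divided by the length of all exons of the gene. In controls E2f4 led with 22.4 ± 1.63 cpm per kilobase in KO and 21.7 ± 1.79 in WT mice (SD, n = 8 each), followed by E2f2 with 15.6 ± 2.95 and 15.4 ± 1.66. Their ranges overlapped in KO controls and not in WT controls. E2f7 came last with 0.411 ± 0.168 in KO and 0.501 ± 0.187 in WT controls, and E2f5, E2f3, E2f8, E2f1 and E2f6 lay between in this order in both genotypes. Among these, the ranges of E2f8, E2f1 and E2f6 overlapped from one to the next in both genotypes. In KO controls E2f5 also overlapped with E2f3 and E2f6 with E2f7, and in WT controls E2f3 overlapped with E2f8.

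After UV, E2f4 stayed first at 29.2 ± 2.15 cpm per kilobase in KO mice, clear of all others, and E2f8 came second at 7.10 ± 1.64. E2f5 (5.12 ± 0.718), E2f2 (4.77 ± 1.14), E2f7 (3.13 ± 0.760), E2f1 (2.46 ± 0.815), E2f6 (2.13 ± 0.299) and E2f3 (2.11 ± 0.260) followed in KO mice, each overlapping with the next. In WT mice E2f1 was last after UV, with 1.47 ± 0.293 cpm per kilobase, and E2f3 next to last, with overlapping ranges. With the longest transcript as the length some middle ranks changed places, whereas E2f4 stayed first in all 4 combinations of genotype and treatment.

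**Figure D4:**
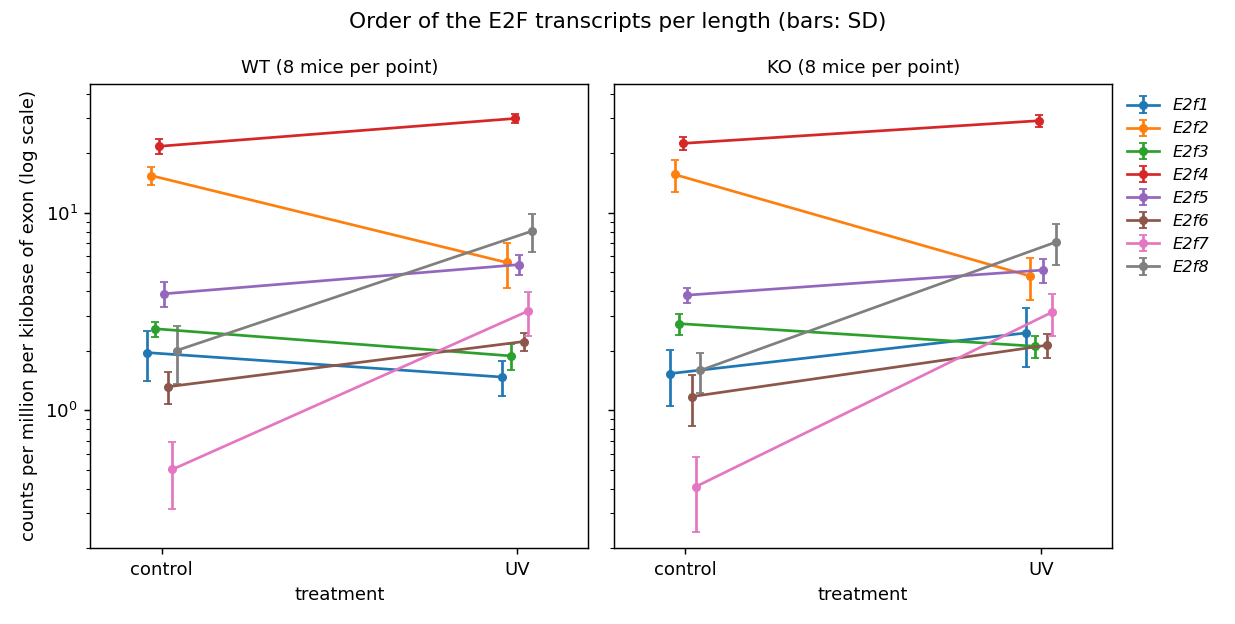
Mean cpm per kilobase of exon of each member in control and UV-exposed mice, on a log axis, WT left and KO right, with 8 mice per point and bars for the SD. In KO mice E2f7 climbs from 0.411 to 3.13 and E2f8 from 1.59 to 7.10, E2f2 falls from 15.6 to 4.77, and E2f4 is highest throughout.

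The partners and co-repressors of the E2F proteins were read from a list of 11 genes for pocket proteins, DP partners and the MuvB core. In KO mice UV raised 3 and lowered 4 of them (median log2 -0.13, all genes 0.09). The pocket protein genes Rb1 and Rbl2 fell by 0.83 (SE 0.08) and 1.38 (SE 0.10) on the log2 scale in KO mice, while Rbl1 changed by -0.18 (edgeR adjusted p = 0.209). The DP genes went in opposite directions, with Tfdp1 at 0.54 (SE 0.07) and Tfdp2 at -2.20 (SE 0.17). Mybl2, whose B-MYB protein joins MuvB to activate mitotic genes, rose by 0.86 (SE 0.21) and Rbbp4 by 0.13 (SE 0.05), and Lin52 fell by 0.43 (SE 0.14).

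In WT mice 1 of these partner genes was called higher and 6 lower (median log2 -0.19, all genes -0.01), with Tfdp2 at -2.84, Rbl2 at -1.70, Rb1 at -0.76, Rbl1 at -0.42 and Mybl2 at 0.23 (adjusted p = 0.336). None of the 11 was called in the test of genotype by UV. Of 10 genes of the E2F6 polycomb complex, 3 rose and 3 fell in KO mice. L3mbtl2 (0.63), Wdr5 (0.74) and Pcgf6 (0.17) were higher, and Mga (-0.60), Max (-0.41) and Cbx3 (-0.37) lower. In WT mice 4 were called higher and 3 lower, and none was called between the genotypes' UV responses. Among exposed mice 1 of the 10 was called lower in KO than in WT mice, beside 3.31% of all genes called.

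Known targets of E2F proteins in G1 and S phase numbered 38 genes, all tested. In KO mice 27 of them rose and 3 fell (median log2 0.68, all genes 0.09), beside 70.8% of all genes called. The leading genes were Ccne1, the cyclin that starts S phase, at 2.36 (SE 0.21), the replication licensing gene Cdt1 at 1.95 (SE 0.16) and the helicase subunit gene Mcm5 at 1.63 (SE 0.20). In WT mice 16 were called higher and 8 lower (median log2 0.09, all genes -0.01), with Ccne1 at 1.26, Cdt1 at 1.36 and Mcm5 at 0.93. The G2 and M phase genes bound by the DREAM complex, B-MYB and FOXM1 (28 genes) had 5 higher and 3 lower in KO mice (median 0.01), with the spindle checkpoint kinase gene Ttk at -1.28 (SE 0.20), Cenpf at -0.89 (SE 0.25) and Birc5, the gene of survivin, at 0.88 (SE 0.20). In WT mice 0 of the 28 were called higher and 19 lower (median -0.68), with Cdkn3 at -1.07 and Cdc25c at -1.37, while in KO mice Cdkn3 had -0.07 (adjusted p = 0.860) and Cdc25c -0.50 (adjusted p = 0.116). Both genes were low, with means of 1.59 cpm for Cdkn3 and 2.92 cpm for Cdc25c over all mice. By sex, 21 of the 28 were called lower in WT females (median -1.04), and 4 lower and 1 higher in WT males (median -0.29). In KO females 2 were called lower and 1 higher (median -0.01), and in KO males 3 lower and 5 higher (median 0.10). Medians of the G1 and S phase genes were -0.02 in WT females, 0.30 in WT males, 0.64 in KO females and 0.67 in KO males.

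No single gene of either cell cycle list passed the edgeR test of genotype by UV, 0 of 38 and 0 of 28, and Ccne1 came nearest at 1.11 (SE 0.29, adjusted p = 0.0566). All 38 and all 28 differences were above 0, with medians of 0.54 and 0.70, where 54.3% of all genes were above 0 with a median of 0.04. These genes share samples and vary together, so the counts are no independent support. Part of the difference lay in the controls, where KO mice had 1 of 38 and 1 of 28 genes above WT mice (medians -0.27 and -0.36), and part after UV (36 of 38 and 27 of 28 above, medians 0.25 and 0.34). For G2 and M phase genes, a difference of similar size arose between the sexes of WT mice. Their UV response was lower in females for 28 of 28 genes (median -0.71), again with no gene called. For G1 and S phase genes this sex difference was smaller (median -0.28, 7 of 38 above 0). In KO mice the medians were -0.04 (11 of 28 above 0) and 0.09 (25 of 38 above 0). KO minus WT, the sex difference was above 0 for 28 of 28 and 29 of 38 genes (medians 0.69 and 0.40), with none called.

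**Figure D5:**
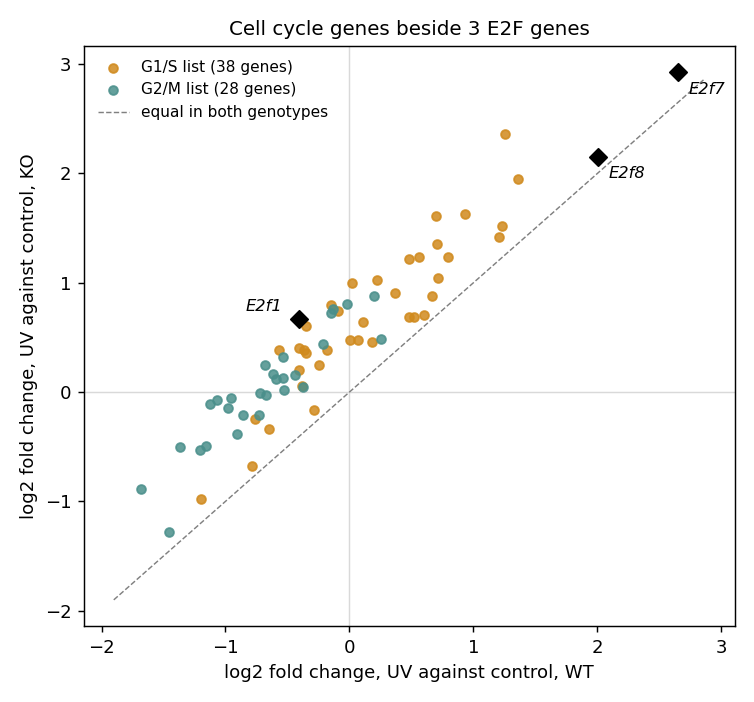
Log2 UV response in WT (x axis) and KO mice (y axis) of 38 G1/S genes (ochre) and 28 G2/M genes (teal), with E2f1, E2f7 and E2f8 as black diamonds and a dashed line where both genotypes are equal. All 66 list genes lie above the line, and none of them passed the test of the difference by itself.

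Among apoptotic targets of E2F1 (8 of 9 genes tested, Hrk being too low), 7 rose and 1 fell in KO mice (median log2 0.51) and 4 were called higher and 1 lower in WT mice (median 0.33). Pmaip1, the gene of NOXA, was at 2.94 (SE 0.21) in KO and 3.19 in WT mice, and Apaf1 at 2.66 (SE 0.10) and 2.45. Targets of p53, which holds E2F activity down through p21, had 15 of 18 genes higher and 2 lower in each genotype. Their medians were 1.78 in KO and 1.89 in WT mice. Whether E2F1, p53 or another factor acted on a gene of either list was not tested. Tnfrsf10b was at 4.18 (SE 0.17) and Eda2r at 3.63 (SE 0.17) in KO mice. Gdf15 had no read in 6 of 8 KO controls and 0.164 to 1.01 cpm in exposed KO mice, so no fold change is given. None of the apoptotic or p53 genes was called between the genotypes' UV responses.

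Across the 32 mice, the genes most like each member were sought by Pearson correlation of log2 cpm after subtraction of each mouse's own group mean, among genes with a mean of at least 1 cpm. The points share libraries and depth, so the values are descriptions. E2f7 ran with Top2a (r = 0.87), Tpx2 (0.86) and Rrm2 (0.86), genes of DNA topology, the spindle and nucleotide supply, and E2f8 ran with E2f7 itself (0.83), Knl1 (0.83) and Ehd2 (0.79). E2f1 was nearest to Prr11 (0.85), Cep55 (0.85) and Ehd2 (0.85). E2f3 was nearest to Fignl1 (0.75), Zfp202 (0.75) and Fbxo5 (0.74), the last of which inhibits the anaphase-promoting complex.

 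E2f2 was nearest to Nubpl (0.73), Star (0.71) and Tspan7 (0.68), E2f4 to Tuba4a (0.82), Prep (0.82) and Sfn (0.80), E2f5 to Ube2d1 (0.76), Sdhc (0.72) and Slirp (0.71), and E2f6 to AI987944 (0.84), Cwf19l1 (0.75) and Apaf1 (0.73). Within the family, E2f1 ran with E2f7 (0.65) and E2f8 (0.56) and went against E2f2 (-0.35).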

How the data were processed

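Reads were trimmed with Cutadapt 1.8, aligned with STAR 2.5.3a to GRCm38 per the submitters' processing notes (the study's methods write a human build) and counted per gene with HTSeq 0.9.1, from TruSeq Stranded libraries read as single reads. The deposited values are raw counts per gene from the authors, 1 column per mouse, without normalization. Reads without a gene (6.80 to 9.75% of uniquely aligned reads) were left out of library sizes. No libraries were identical.

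Groups came from the genotype, sex and treatment labels. The 15546 genes that reached 1 cpm in 1 mouse or more were fitted over all 32 mice with 8 group means in edgeR 4.0.16 (R 4.3.3; TMM, glmQLFit, glmQLFTest), adjusted over all genes by Benjamini-Hochberg and called under 0.05. Sexes were weighted equally. Standard errors were the unshrunken log2 change over the root of F, and 95% intervals 1.96 SE. On simulated data, log2 changes of 1 were called for 88% of 50 genes for UV in KO mice and 70% for genotype by UV, and changes of 0.585 for 64% and 32%. The simulation changed sets of 50 genes among 15546, in exposed KO mice alone. In the real data 70.8% of genes were called for UV in KO mice, so the simulated rates need not hold there. The members and gene lists were chosen with earlier results of these data known. Named genes were the members, partners, Cdkn3, Cdc25c and, per list, the 3 largest called changes under UV in KO mice, of which 1 gene is not reported here. Partner genes, E2F6 complex genes and cell type markers were counted too. Coordinates and exon lengths are from GENCODE M21 (GRCm38). Alternatives were RLE scaling, DESeq2 1.42.0, limma-trend (limma 3.58.1), other filters, fits of 1 genotype, sex as an additive term, leaving out each mouse, a prior count of 0.25 in place of 1 and the longest transcript. A pair more, without mice of high muscle markers and within 1 sex, were added after the data were seen.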

Additional observations from a re-analysis of the deposited data

Results flagged for a closer look

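The E2f1 response to UV differed between the genotypes by 1.08 on the log2 scale (edgeR adjusted p = 0.0351), which drew attention as a difference between groups under the same treatment. It was above 0 in males (0.84) and females (1.31), and the genotype ranges of E2f1 overlapped in both treatment states. The WT response within this difference belongs to the values the family was chosen on, so the p is no independent test.

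In 64 groups of 4 mice (8 genes in 8 groups), 2 values stood far from the other 3 by Dixon's criterion, where chance alone marks about 1 in 20 groups. E2f2 was 80.6 cpm in the control KO female 69F, above 67.1 to 69.2 cpm in the other 3, and E2f4 was 63.9 cpm in the exposed KO male 58M, below 71.3 to 72.4 cpm in the other 3.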

How the results depend on the processing

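No value changed direction with a call in any alternative. The UV response in KO mice kept all 8 calls in each of the 320 values of single members. Most calls lost elsewhere were of E2f1. For exposed KO against exposed WT mice the count of members called went from 1 to 0 without a low-count filter and without the mice of high muscle markers. For genotype by UV it went from 1 to 0 without a filter (E2f1 adjusted p = 0.0866), with sex as an additive term (0.0532), without the mice of high muscle markers, in males only and in females only, while RLE, DESeq2, limma-trend and filterByExpr kept it (E2f1 adjusted p from 0.00471 to 0.596 over these 9 settings). For exposed KO females against males it went from 1 to 0 with RLE, limma-trend, filterByExpr, no filter, KO mice fitted alone and without the mice of high muscle markers. For exposed WT females against males it went from 0 to 1 (E2f2, adjusted p = 0.0201) with WT mice fitted alone. Fewer mice or more genes tested enter some of these fits, and otherwise the cause was not tested.

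With each mouse left out in turn, the counts ran from 0 to 1 for exposed KO against WT, genotype by UV and exposed KO females against males, from 7 to 8 for UV in WT mice, in KO males and in WT females, from 6 to 8 in KO females and from 6 to 7 in WT males, and stayed at 8 for UV in KO mice and 0 elsewhere. The E2f1 fall in WT mice lost its call for 18 of 32 mice left out (adjusted p up to 0.122) and under 6 of 8 other settings (0.0549 to 0.0857). The E2f1 call in KO males was lost in 1 of 7 other settings (0.0570), in KO females in 2 of 7 (up to 0.0604) and in WT females in 2 of 7 (up to 0.0690). E2f5 lost its call in KO females in 2 of 7 settings (up to 0.299) and in WT males in 1 of 7 (0.0558) and for 2 mice left out (up to 0.0609), and E2f3 gained one in KO females in 1 of 7 settings (0.0463) and for 2 mice left out (lowest 0.0416). Over all genes, genotype by UV called 119 genes, against 792 with DESeq2 and 55 without a filter. Exposed KO against WT called 514, against 1116 with DESeq2, 260 with limma-trend and 263 without a filter, and control KO against WT 32, against 78 with DESeq2. The standard errors of the UV responses were 0.18 to 0.22 for E2f1, E2f7 and E2f8 and 0.06 to 0.12 for the other 5 members, and E2f1 had 53 to 370 reads per mouse. No paired analysis was possible because each mouse label, a number with a sex letter, occurs once and the labels do not tie mice that share a number. The cell type markers without 54F were counted after seeing the data.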
